A study of Homo sapiens with 15 samples.

Results

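The genes described here encode secreted and membrane metalloproteinases and their inhibitors: matrix metalloproteinases (MMP), disintegrin metalloproteinases (ADAM), their thrombospondin-repeat relatives (ADAMTS), the ADAMTS-like proteins (ADAMTSL) and tissue inhibitors of metalloproteinases (TIMP). They were taken by gene name alone, with no use of measured values, and 41 of the 15790 genes in the deposited table belong to them: 10 MMP, 4 TIMP, 10 ADAM, 13 ADAMTS and 4 ADAMTSL genes. RNA was sequenced from 15 samples of human cell culture in 5 groups of 3, collected 14 days after seeding. RPTEC/TERT1, a line of renal proximal tubule epithelium immortalized with telomerase, was grown together with fHDF/TERT166, a telomerase-immortalized line of dermal fibroblasts, on LN/FN-silk membranes (silk co-cultures) or on LN/PC membranes (LN/PC co-cultures). Fibroblasts of the same line were sampled alone, and the epithelial line was grown alone on LN/FN-silk (silk monocultures) or on LN/PC (LN/PC monocultures). Epithelial cells were seeded at 140000 per cm2, and fibroblasts, added first, at 14000 per cm2 in co-cultures. Both cell types are single purchased lines, and several membranes were pooled for each sample. Cells were scraped off silk membranes, whereas LN/PC membranes were cut out, and the effects of membrane and of harvest cannot be told apart. The fibroblast samples are called monocultures in the titles and basolateral fibroblasts from the well bottom in the protocol, so they did not grow on either membrane by that account. Nothing in the labels states whether the replicates of a group came from separate cultures. The p-values therefore reflect sample-to-sample spread only, and that spread may be technical.

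As background, MMPs cut collagens, laminins and other matrix proteins outside the cell. They are made as inactive zymogens, and TIMPs bind their active sites and block them. MMP14, a membrane-anchored member, activates MMP2 in a complex that needs TIMP2, so TIMP2 both limits MMP2 and takes part in its activation. ADAM10 and ADAM17 release growth factors, cytokine receptors and adhesion molecules from the cell surface, while ADAMTS enzymes trim procollagens and proteoglycans, and ADAMTSL proteins carry the ancillary repeats without a protease domain. In kidney, MMP7 is a product of injured tubule epithelium, and TIMP1 and MMP2 are studied in fibrosis.

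Values are normalized counts, that is, reads per gene divided by the library's size factor, turned back from the log2 values deposited by the authors. They carry no correction for gene length, so levels are compared here between groups for 1 gene and not between genes. A library held about 8800000 to 14700000 assigned reads, by the spacing of its low values, and 1 read was worth 0.755 to 1.33 normalized counts. Fibroblast marker genes (15 genes such as COL1A1 and PDGFRB) summed to 141 to 790 in silk co-cultures, 95468 to 172740 in co-cultures on LN/PC, 499930 to 569880 in fibroblasts, 119 to 162 in silk monocultures and 61.0 to 110 in monocultures on LN/PC. POSTN and TWIST1 were at 0 in all 3 silk co-cultures, and no fibroblast marker was at 0 in every LN/PC co-culture. Of 18 renal epithelial markers 16 were in the table, and they summed to 43199 to 47996 in silk co-cultures, 37198 to 46764 in co-cultures on LN/PC, 11089 to 13293 in fibroblasts, 40839 to 50570 in silk monocultures and 41073 to 50255 in monocultures on LN/PC. CDH1, CDH16, KRT18, PAX2, SLC17A1 and FXYD2 were at 0 in all fibroblast libraries, whose epithelial sum came mainly from ANPEP, a peptidase gene also active in fibroblasts. Of 7 smooth muscle and pericyte markers 5 were in the table, with sums of 272 to 349 in silk co-cultures, 1416 to 2071 in co-cultures on LN/PC and 3550.2 to 3971 in fibroblasts. CD68 was the only 1 of 6 immune markers in the table (757 to 885 in silk co-cultures, 351 to 501 in co-cultures on LN/PC, 523 to 581 in fibroblasts, 85.8 to 196 in silk monocultures and 152 to 255 in monocultures on LN/PC), and PECAM1 the only 1 of 5 endothelial markers (highest value 97.7, in an LN/PC monoculture). The part of these cell types in the results was not tested.

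**Figure D1:**
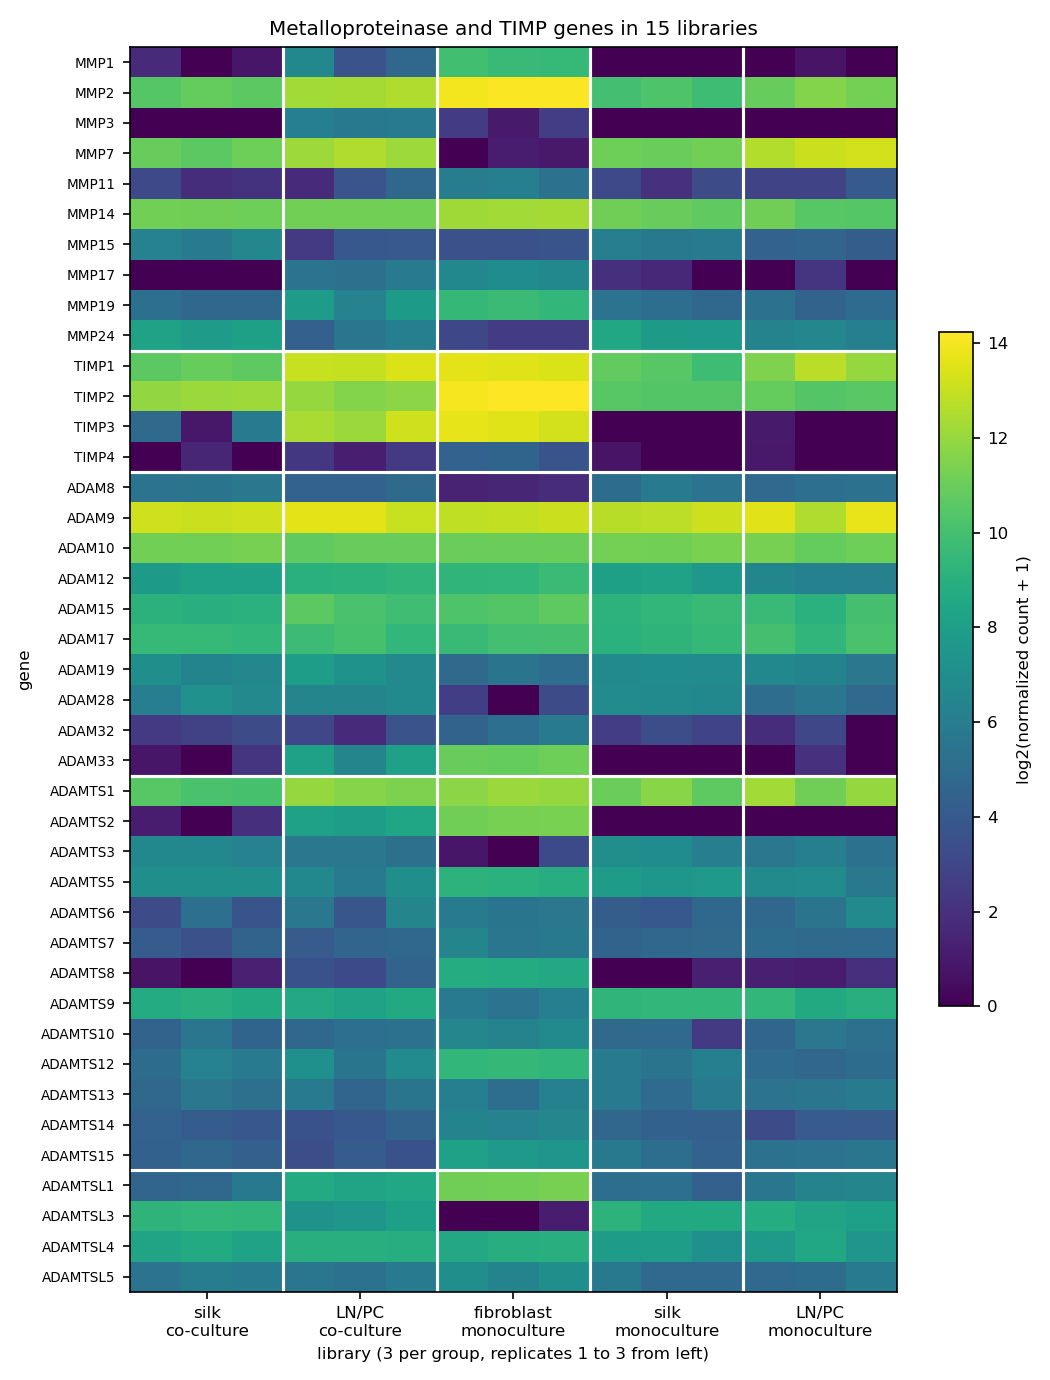
Level of each of the 41 genes (rows, by family) in each of the 15 libraries (columns, 3 per group), as log2(normalized count + 1) by colour. ADAMTS2 and ADAM33 are bright in fibroblasts and LN/PC co-cultures and dark in the other 3 groups, while MMP7 and ADAMTSL3 are dark in fibroblasts alone. TIMP3 is likewise bright in fibroblasts and LN/PC co-cultures and dark in epithelial monocultures, with 28.9, 0.918 and 55.6 in silk co-cultures.

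The first comparison set fibroblasts against the epithelial line, using the mean of its monocultures on both membranes, to show which cell type carries each gene. Of the 40 genes tested, 25 were higher and 9 lower in fibroblasts, where 58.3% of all 14502 genes tested passed, 28% higher and 30.3% lower (limma-trend on log2(normalized count + 1), Benjamini-Hochberg adjusted p under 0.05). The median log2 difference of the tested family members was 1.81, against -0.02 over all genes tested. Of the 40, 8 passed the filter on low values only through fibroblasts and so had to be higher there. These were ADAM32, ADAM33, ADAMTS2, ADAMTS8, MMP1, MMP17, TIMP3 and TIMP4. In the same way ADAM28, ADAM8, ADAMTS3, ADAMTSL3, MMP24 and MMP7 passed it only through the epithelial monocultures and so had to be lower in fibroblasts.

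All 4 TIMP genes were higher in fibroblasts, as TIMP3 and TIMP4 had to be by the filter. TIMP3 had 13290.0, 11686 and 9908 in fibroblasts, against 0 in all 3 silk monocultures and 1.00, 0 and 0 in monocultures on LN/PC; it encodes the inhibitor that stays bound to matrix. With 1 read in all 6 epithelial monocultures together, the ratio of pooled reads was 75281 (95% exact interval 13511 to 2973500). TIMP2 averaged 18304 ± 1143 in fibroblasts, 1404 ± 81.4 in silk monocultures and 1588 ± 225 in monocultures on LN/PC (SD, n = 3 each), a log2 difference of 3.62 ± 0.12 (SE; adjusted p = 3.57e-10). TIMP1, a soluble inhibitor, averaged 11993 ± 954 in fibroblasts, 1375 ± 436 in silk monocultures and 4617 ± 2175 in monocultures on LN/PC. The log2 difference was 2.33 ± 0.27 (adjusted p = 1.86e-05). TIMP4 was low everywhere, with 20.8, 23.4 and 12.1 in fibroblasts and at most 0.994 in an epithelial monoculture, a ratio of pooled reads of 59.7 (95% exact interval 15.8 to 506).

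Among the MMP genes, 6 of 9 tested were higher in fibroblasts and 3 lower. By the filter, MMP1 and MMP17 among the 6 had to be higher, and MMP7 and MMP24 among the 3 had to be lower. The gelatinase gene MMP2 had 16211, 18408 and 17837 in fibroblasts, against 1012, 1273 and 879 in silk monocultures and 1966, 3119.7 and 2469.8 in monocultures on LN/PC, and its activator MMP14 had 4729, 4976 and 5026 in fibroblasts, against 2278, 1942 and 1702 in silk monocultures and 2253, 1507 and 1449 in monocultures on LN/PC. The log2 differences were 3.44 ± 0.17 for MMP2 (adjusted p = 7.13e-09) and 1.43 ± 0.16 for MMP14 (adjusted p = 1.06e-05). MMP1, interstitial collagenase, had 975, 779 and 741 in fibroblasts, against 0 in 5 of the 6 epithelial monocultures. MMP19 averaged 746 ± 68.4 in fibroblasts, against 34.2 ± 7.90 in silk monocultures and 30.6 ± 8.51 in monocultures on LN/PC, and MMP17, a membrane-anchored enzyme, had 98.7, 119.9 and 100.0 in fibroblasts and at most 3.41 in an epithelial monoculture. MMP7, matrilysin, showed the opposite pattern with 0, 1.18 and 0.929 in fibroblasts, against 2182, 2052 and 2311 in silk monocultures and 6041, 8729 and 9721 in monocultures on LN/PC. Its 2 reads over all fibroblast libraries give a ratio of 7733 (95% exact interval 2141 to 63857) for the epithelial monocultures over fibroblasts. MMP24, another membrane-anchored enzyme, averaged 5.69 ± 1.67 in fibroblasts, against 257 ± 85.6 in silk monocultures and 82.3 ± 14.1 in monocultures on LN/PC. An antisense gene overlaps MMP24 and the counting's strand setting is not given in the sources used here, so reads of the pair may be mixed.

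The ADAM and ADAMTS genes were divided between the cell types. ADAM33 had 1899.8, 1884 and 2198 in fibroblasts, against 0 in all 3 silk monocultures and 0, 3.03 and 0 in monocultures on LN/PC. ADAMTS2, a procollagen N-proteinase, had 2276, 2569 and 2607 in fibroblasts and 0 in all 6 epithelial monocultures, which makes fibroblasts at least 881-fold higher against a floor of 3 reads per library. ADAMTS8 averaged 419 ± 28.6 in fibroblasts, ADAMTS12 689.9 ± 26.8 in fibroblasts and ADAMTSL1 2364 ± 142 in fibroblasts. Epithelial monocultures stayed far below these levels: ADAMTS8 averaged 0.452 ± 0.784 in silk monocultures and 1.86 ± 0.967 in monocultures on LN/PC, ADAMTS12 56.9 ± 13.3 in silk monocultures and 29.0 ± 3.75 in monocultures on LN/PC, and ADAMTSL1 29.9 ± 8.93 in silk monocultures and 71.9 ± 22.1 in monocultures on LN/PC. ADAMTS9, which cleaves versican, was lower in fibroblasts with 56.0, 41.9 and 68.4 in fibroblasts, against 632, 671 and 676 in silk monocultures and 692, 403 and 495 in monocultures on LN/PC (-3.40 ± 0.20, adjusted p = 4.02e-08). ADAMTSL3 had 1 read in all fibroblast libraries together, and the epithelial monocultures averaged 458 ± 103 in silk monocultures and 338 ± 96.0 in monocultures on LN/PC (ratio of epithelial to fibroblast reads 1225, 95% exact interval 219.7 to 48400). ADAM28, ADAM19, ADAM8 and ADAMTS3 were also lower in fibroblasts, at means of 4.55, 34.9, 2.01 and 2.98. Of the genes lower there, ADAM28, ADAM8, ADAMTS3 and ADAMTSL3 had to be so by the filter. ADAM15 had means of 1429.6 in fibroblasts, against 680.2 and 799 in silk and LN/PC monocultures, and ADAM9, ADAM10, ADAM17, ADAMTS1, ADAMTS6 and ADAMTS13 did not pass.

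The second comparison asked how the membrane changed the epithelium alone. Of 38 genes tested, 10 passed, 6 higher and 4 lower in silk monocultures than in monocultures on LN/PC, where 11.7% of the 14433 genes tested passed (5.88% higher, 5.79% lower). The median log2 difference was -0.07 over the family members and 0.03 over all genes. The count was 5 without silk monoculture 1 and 6 without LN/PC monoculture 3. Over all genes it fell from 1685 to 881 and 695 in these fits.

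MMP7, TIMP1 and MMP2 were lower on silk. MMP7 had 2182, 2052 and 2311 in silk monocultures, against 6041, 8729 and 9721 in monocultures on LN/PC, and TIMP1 had 1765, 1455 and 905 in silk monocultures, against 2803, 7028 and 4019 in monocultures on LN/PC. Every silk library lay below every LN/PC library for both genes, as for 12.3% of all genes tested. The log2 differences were -1.88 ± 0.18 for MMP7 (adjusted p = 2.11e-05) and -1.70 ± 0.28 for TIMP1 (adjusted p = 0.00154). MMP2 had 1012, 1273 and 879 in silk monocultures, against 1966, 3119.7 and 2469.8 in monocultures on LN/PC, again with no overlap (-1.25 ± 0.19, adjusted p = 0.000637). ADAMTSL1 was the fourth gene lower on silk, with 34.2, 35.9 and 19.7 in silk monocultures, against 46.7, 81.4 and 87.7 in monocultures on LN/PC (-1.23 ± 0.35, adjusted p = 0.0323), a call lost without silk monoculture 1 (adjusted p = 0.0517), silk monoculture 3 (0.111) or LN/PC monoculture 3 (0.126). TIMP2 and MMP14 did not pass: TIMP2 averaged 1404 ± 81.4 in silk monocultures and 1588 ± 225 in monocultures on LN/PC (95% interval of the log2 difference -0.48 to 0.15), and MMP14 1974 ± 289 in silk monocultures and 1736 ± 448 in monocultures on LN/PC (-0.15 to 0.56).

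The 6 genes higher on silk were ADAM12, ADAM28, MMP15, MMP24, ADAMTS3 and ADAMTS5. ADAM12, meltrin alpha, had 274, 297 and 192 in silk monocultures, against 92.0, 74.8 and 71.3 in monocultures on LN/PC, and ADAM28 had 118, 112 and 97.2 in silk monocultures, against 33.0, 47.8 and 28.3 in monocultures on LN/PC. Silk libraries lay wholly above LN/PC libraries for both genes, as for 14.2% of all genes tested. The log2 differences were 1.65 ± 0.20 (adjusted p = 0.000116) and 1.59 ± 0.30 (adjusted p = 0.00355). MMP24 had 356, 212 and 203 in silk monocultures, against 81.7, 96.7 and 68.5 in monocultures on LN/PC (1.60 ± 0.36, adjusted p = 0.0108), which did not pass without silk monoculture 1 (adjusted p = 0.0523). MMP15, a lower-level membrane-type MMP named after its values were seen, had 65.8, 53.8 and 58.1 in silk monocultures, against 21.1, 24.4 and 17.5 in monocultures on LN/PC (1.46 ± 0.40, adjusted p = 0.029), and its call was lost in 5 of 21 alternatives, each without 1 of the silk monocultures (0.0891, 0.0634 and 0.0693 without 1, 2 and 3) or without LN/PC monoculture 1 (0.0681) or 3 (0.0992). ADAMTS5, an aggrecan-cleaving enzyme, had 227, 186 and 208 in silk monocultures, against 108, 117 and 50.2 in monocultures on LN/PC (1.26 ± 0.32, adjusted p = 0.0199), and did not pass without silk monoculture 1 (0.0647), silk monoculture 3 (0.0544) or LN/PC monoculture 3 (0.0934). ADAMTS3 had 129, 122 and 67.0 in silk monocultures, against 49.7, 68.2 and 38.7 in monocultures on LN/PC; its libraries overlapped and its adjusted p of 0.0469 passed in 12 of 21 alternatives and reached 0.178 without LN/PC monoculture 3.

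**Figure D2:**
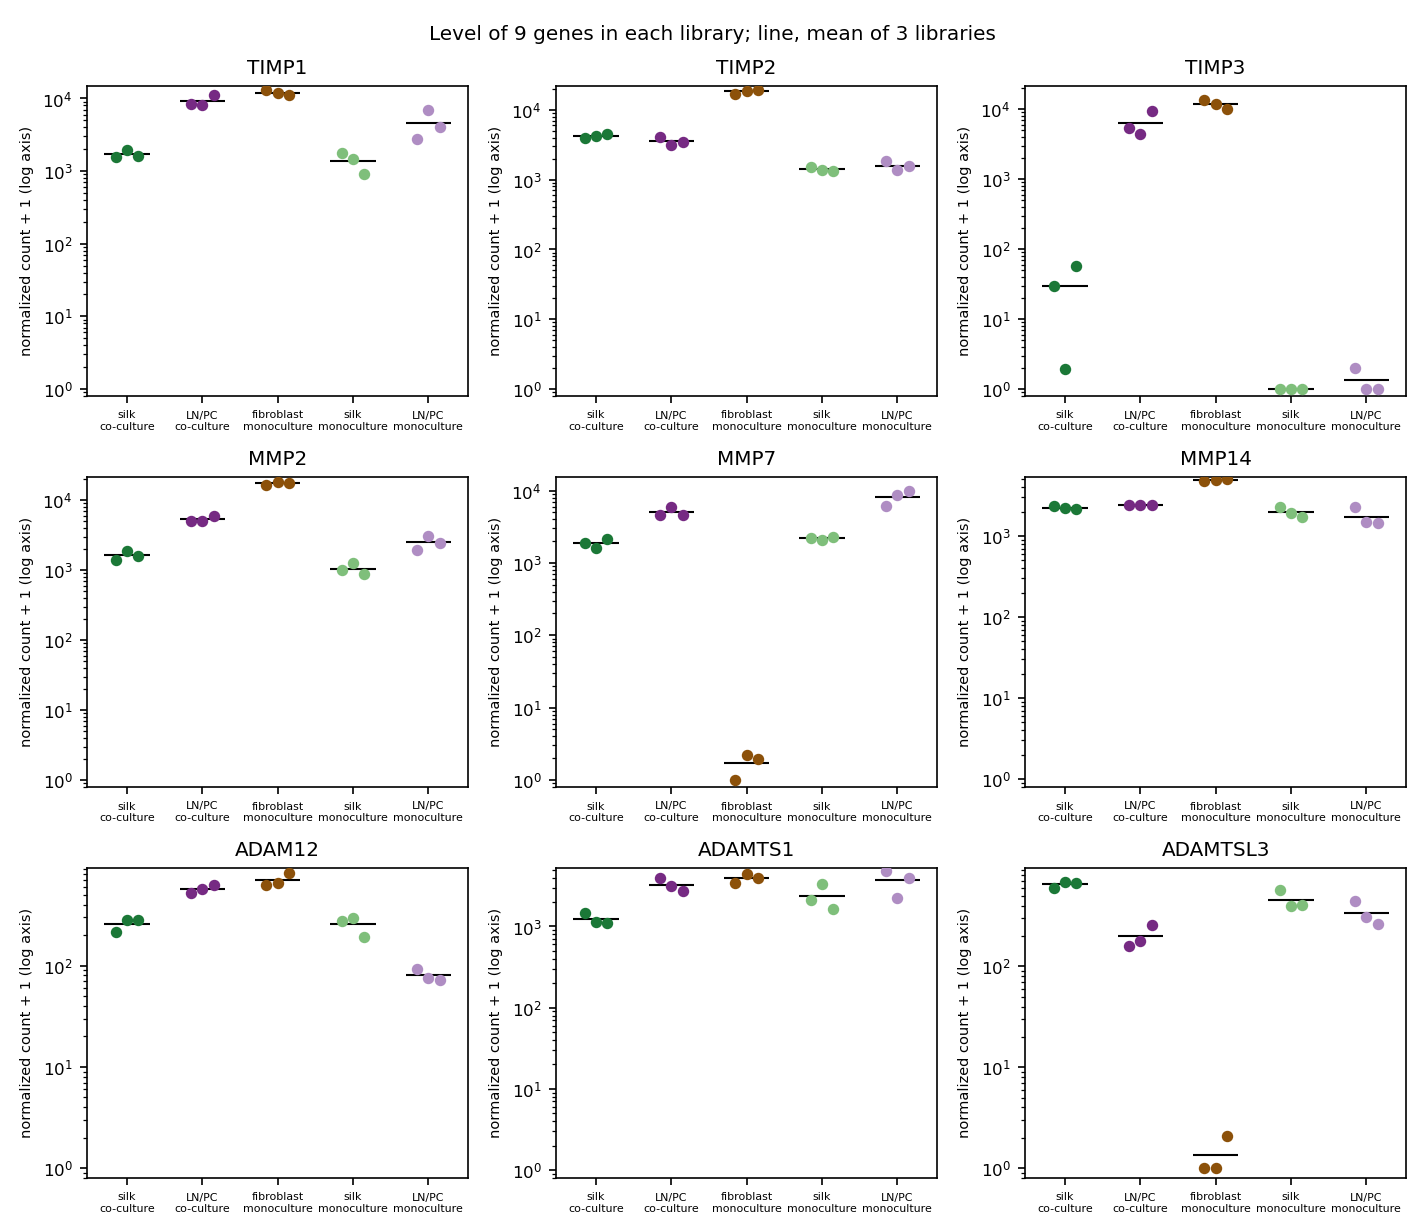
Normalized count + 1 on a log axis for 9 genes, with 1 point per library, 5 groups from left to right and a line at each mean of 3. MMP7 and TIMP1 are lower on silk than on LN/PC in both culture types, TIMP2 is higher in both co-cultures than in the monocultures, and TIMP3 is near 0 in monocultures of the epithelium.

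The start regions of MMP7 and TIMP1 are shown because these genes had the most negative called differences between silk and LN/PC monocultures. A RefSeq promoter (GRCh38.p14) was found for 26 of the 41 genes, and the 250 bases before the start were searched on both strands for 3 motifs, with matches in capitals below and no match overlapping another. The AP-1 motif was TGAGTCA, the TATA box was searched as TATAAA, and the letters of the GC box were GGGCGG. MMP7 held the AP-1 motif starting at -67 and a TATA box at -30, counted from the gene's start, and no GC box, and was the only 1 of the 26 with AP-1 letters. TIMP1 held 2 GC boxes and neither of the other motifs in these exact letters. Variant letters, such as the tgagtaa in its sequence, were not searched in any promoter. Of 35116 RefSeq promoters cut to the same length, 4.2% held AP-1, 10.7% TATA and 42.6% GC box letters. A match is a description of letters and not evidence of binding.
MMP7, chr11:102530748-102530997, minus strand: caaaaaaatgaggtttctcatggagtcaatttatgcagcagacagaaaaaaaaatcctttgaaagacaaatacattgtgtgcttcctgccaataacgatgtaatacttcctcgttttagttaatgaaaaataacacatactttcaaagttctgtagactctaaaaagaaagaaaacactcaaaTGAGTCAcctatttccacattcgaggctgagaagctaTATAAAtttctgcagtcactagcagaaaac
TIMP1, chrX:47582186-47582435, plus strand: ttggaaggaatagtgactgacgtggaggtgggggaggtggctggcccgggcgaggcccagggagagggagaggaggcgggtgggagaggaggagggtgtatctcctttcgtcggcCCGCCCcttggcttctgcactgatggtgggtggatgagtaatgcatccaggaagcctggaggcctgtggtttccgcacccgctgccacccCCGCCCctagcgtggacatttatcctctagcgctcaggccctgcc

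Co-cultures held fibroblast RNA in very different amounts on the membranes. Over 112 fibroblast-restricted genes, the median excess over the matching monocultures was 0.0239%, 0% and 0.113% of the fibroblast excess in silk co-cultures, and 13.9%, 9.81% and 15.2% in co-cultures on LN/PC (p = 0.1 by an exact permutation test, two-sided, the lowest value 3 against 3 can give). In these bulk samples, fewer fibroblasts and less RNA per fibroblast cannot be told apart. This share moved with every co-culture comparison below, and its part in each result was not tested unless a value is given.

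On LN/PC, 19 of 38 genes differed between co-cultures and monocultures, 16 higher and 3 lower, where 12.5% of all genes passed (7.8% higher, 4.72% lower). The median log2 difference was 0.25 over the family members and -0.04 over all genes. MMP1, MMP3, MMP17, ADAM33 and ADAMTS2 passed the filter on low values only through the LN/PC co-cultures. These 5 had to differ, and their calls are given as descriptions. Of the other 33 members 11 were higher and 3 lower. TIMP3, among these 11, reached 10 normalized counts in 5 of the 12 libraries, none of them monocultures. Its direction against monocultures was therefore fixed too. The count was 10 without LN/PC co-culture 1 and 12 without LN/PC co-culture 2, where 33 and 32 members were tested. ADAM19 and ADAMTSL3 did not pass in either fit. Over all genes the count fell from 1807 to 753 and 1279. After rescaling on 72 epithelium-restricted genes, which moved the median over all genes to 0.38, 18 were higher and 1 lower. Of all genes, 3650 were then higher and 126 lower.

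Of the MMP genes 5 were higher and 1 lower with fibroblasts on LN/PC, and all 3 tested TIMP genes were higher. MMP1, MMP3, MMP17 and TIMP3 among them had to be higher by the filter. MMP2 had 4978, 4984 and 6024 in co-cultures on LN/PC, against 1966, 3119.7 and 2469.8 in monocultures on LN/PC (1.10 ± 0.19, adjusted p = 0.000576). Its co-cultures lay wholly above its monocultures, as for 13.8% of all genes tested. MMP1 had 100.5, 11.5 and 27.0 in co-cultures on LN/PC, against 0, 0.66 and 0 in monocultures on LN/PC, with a wide spread among co-cultures and a ratio of pooled reads of 139 (95% exact interval 24.5 to 5533). MMP3, stromelysin 1, which was singled out after its values were seen, had 69.9, 52.2 and 58.2 in co-cultures on LN/PC and 0 in all 3 LN/PC monocultures, at least 21.2-fold higher against a floor of 3 reads per library. It was also 0 in every silk library and only 4.82, 1.04 and 4.96 in fibroblasts, so that all LN/PC co-cultures exceeded both cell types alone. MMP19 had 224, 77.5 and 217 in co-cultures on LN/PC, against 39.2, 22.2 and 30.4 in monocultures on LN/PC (2.35 ± 0.39, adjusted p = 0.000512), and MMP17 had 41.3, 37.1 and 59.3 in co-cultures on LN/PC, against 0, 3.41 and 0 in monocultures on LN/PC. TIMP3 reached 5427, 4426 and 9248 in co-cultures on LN/PC, against 1.00, 0 and 0 in monocultures on LN/PC, a ratio of pooled reads of 22129 (95% exact interval 3971 to 874100.0). TIMP2 had 4013, 3091 and 3489 in co-cultures on LN/PC, against 1830.0, 1385 and 1547 in monocultures on LN/PC (1.15 ± 0.15, adjusted p = 3.45e-05). TIMP1 had 8441, 8073 and 11270.0 in co-cultures on LN/PC, against 2803, 7028 and 4019 in monocultures on LN/PC (1.09 ± 0.28, adjusted p = 0.0167), without overlap, and did not pass without LN/PC co-culture 3 (adjusted p = 0.0665) or LN/PC monoculture 1 (0.102).

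Of the disintegrin genes, ADAM12 had 527, 573 and 631 in co-cultures on LN/PC, against 92.0, 74.8 and 71.3 in monocultures on LN/PC (2.85 ± 0.20, adjusted p = 4.66e-08), and ADAM28 had 88.0, 89.2 and 106 in co-cultures on LN/PC, against 33.0, 47.8 and 28.3 in monocultures on LN/PC (1.38 ± 0.30, adjusted p = 0.00483). Co-cultures lay above monocultures in every library for both, as for 13.8% of all genes tested. ADAM28 was low in fibroblasts (5.16, 0 and 8.49 in fibroblasts), so that its LN/PC co-culture level exceeded fibroblasts and LN/PC monocultures. It did not exceed silk monocultures, which had 118, 112 and 97.2. ADAM19 had 239, 157 and 103 in co-cultures on LN/PC, 29.3, 42.9 and 32.5 in fibroblasts and 100.2, 86.1 and 49.2 in monocultures on LN/PC, but its adjusted p of 0.0412 was lost in 7 of 21 alternatives (0.209 without LN/PC co-culture 1). ADAM33 had 278, 87.1 and 281 in co-cultures on LN/PC, against 0, 3.03 and 0 in monocultures on LN/PC. In the ADAMTS group, ADAMTS2 had 281, 244 and 347 in co-cultures on LN/PC and 0 in all 3 LN/PC monocultures, at least 102-fold higher, and ADAMTS12 had 138, 44.7 and 115 in co-cultures on LN/PC, against 30.1, 24.8 and 32.1 in monocultures on LN/PC (1.60 ± 0.41, adjusted p = 0.0161; 0.101 without LN/PC co-culture 1 and 0.0646 without LN/PC co-culture 3). ADAMTSL1 had 414, 311 and 355 in co-cultures on LN/PC, against 46.7, 81.4 and 87.7 in monocultures on LN/PC (2.35 ± 0.35, adjusted p = 0.000158). ADAMTSL4, which binds fibrillin, had 481, 506 and 470.1 in co-cultures on LN/PC, against 209, 349 and 169 in monocultures on LN/PC (1.07 ± 0.25, adjusted p = 0.0101).

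MMP7, ADAMTSL3 and ADAMTS15 were the 3 genes lower with fibroblasts on LN/PC. MMP7 had 4534, 5889.6 and 4551 in co-cultures on LN/PC, against 6041, 8729 and 9721 in monocultures on LN/PC (-0.69 ± 0.18, adjusted p = 0.0204), and ADAMTSL3 had 159.8, 178 and 257 in co-cultures on LN/PC, against 445, 310.2 and 259 in monocultures on LN/PC (-0.76 ± 0.22, adjusted p = 0.0345). Neither gene passed when libraries were rescaled on epithelium-restricted genes: MMP7 then differed by -0.26 (adjusted p = 0.298) and ADAMTSL3 by -0.34 (adjusted p = 0.295). The MMP7 call was also lost without LN/PC co-culture 1 (adjusted p = 0.103), LN/PC co-culture 3 (0.0732) or LN/PC monoculture 3 (0.0664), and the ADAMTSL3 call without LN/PC co-culture 1 (0.162), LN/PC co-culture 2 (0.1), LN/PC monoculture 1 (0.174) or silk co-culture 3 (0.0519). With only the compared groups in the fit, MMP7 had an adjusted p of 0.0962 and ADAMTSL3 of 0.102. ADAMTS15 had 9.81, 16.7 and 10.9 in co-cultures on LN/PC, against 39.4, 41.5 and 46.5 in monocultures on LN/PC (-1.72 ± 0.37, adjusted p = 0.00537), and this call held in all 20 alternatives in which it was tested, although fibroblasts carried more of it (287, 205 and 169 in fibroblasts).

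The excess of each fibroblast-enriched gene in co-cultures on LN/PC was expressed relative to its excess in fibroblasts, in percent, and set beside the 112 marker genes, whose quartiles were 7.09%, 13.2% and 22.0% and whose highest value was 69.3%. ADAM12 reached 79.9 ± 8.39% (SD, n = 3), above every marker gene, with 71.8%, 79.2% and 88.5% in the 3 libraries. TIMP3 reached 54.8 ± 21.9% and MMP17 42.6 ± 11.2%, both above the upper quartile, and TIMP3 is itself 1 of the 112 markers. Inside the quartiles lay MMP19 (19.9 ± 11.6%), MMP2 (18.8 ± 4.03%), ADAMTSL1 (12.6 ± 2.27%), ADAMTS2 (11.7 ± 2.09%), TIMP2 (11.6 ± 2.76%), ADAM33 (10.8 ± 5.57%) and ADAMTS12 (10.7 ± 7.38%), of which ADAMTS2 and ADAM33 are also markers. Below them lay MMP1 (5.55 ± 5.72%), ADAMTS8 (2.85 ± 1.82%), ADAMTS5 (1.60 ± 8.58%) and ADAMTS15 (-16.9 ± 2.09%). These percents are descriptions without a test, since a gene's level per fibroblast in co-culture was not measured apart from the epithelium. The markers were chosen as genes far lower in epithelial monocultures than in fibroblasts, whereas ADAM12 averaged 79.3 in monocultures on LN/PC and 703 in fibroblasts. The percent of such a gene also moves with its epithelial level, so the marker range is no like-for-like reference for it.

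**Figure D3:**
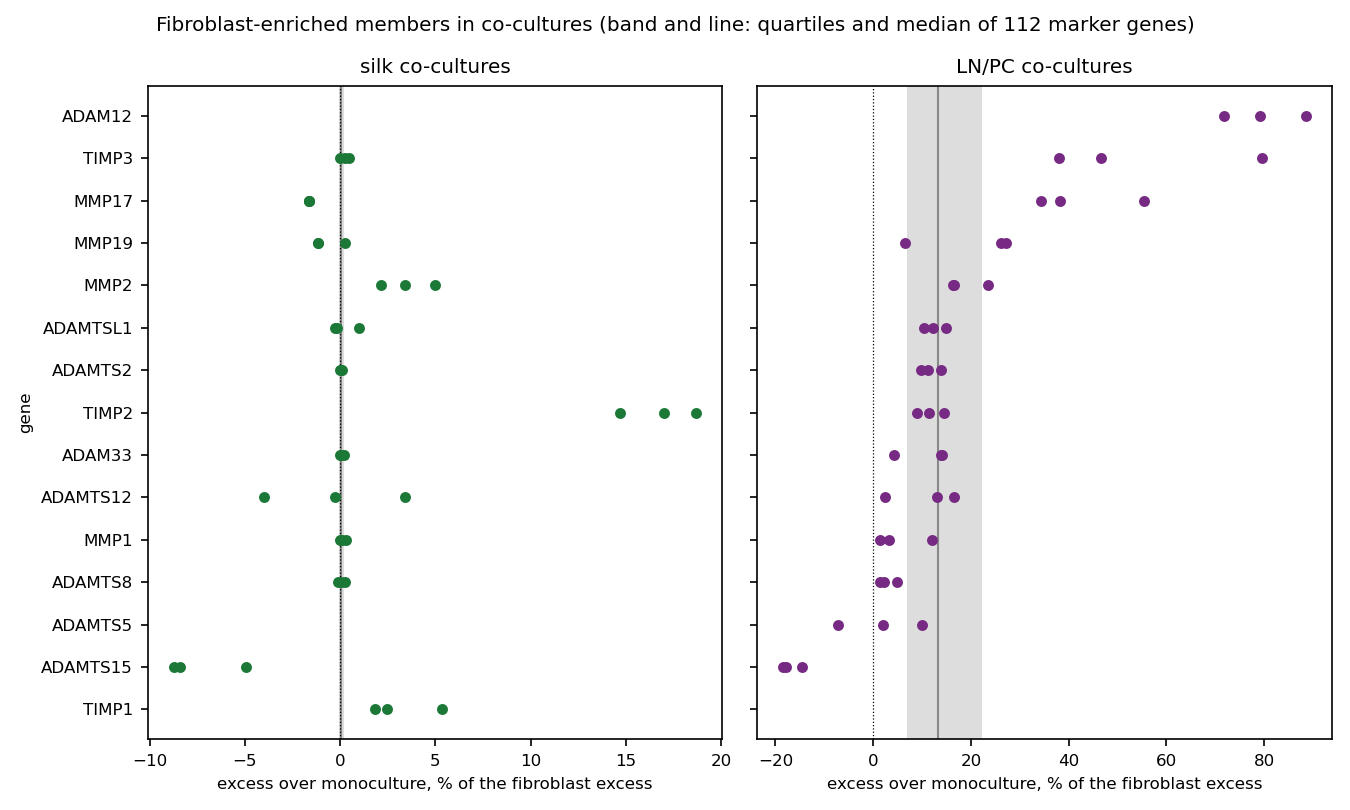
Excess of a co-culture over monocultures on its own membrane, in percent of the fibroblast excess (x axis), for genes at least 5 times higher in fibroblasts (rows), with 1 point per co-culture library. The grey band and line are the quartiles and median of 112 marker genes. TIMP2 stands at 14.7% to 18.7% in silk co-cultures and ADAM12 at 71.8% to 88.5% in co-cultures on LN/PC, and genes without points on 1 side were under 5 times there.

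On silk, 2 of 38 genes passed between co-cultures and monocultures, both TIMP genes and both higher. Of all genes 3.78% passed (2.91% higher, 0.866% lower). An unadjusted p under 0.05 was reached by 7 of the 38 in the limma test. No share over all genes was taken at that cutoff, so the 7 cannot be set beside a general rate. TIMP2 had 3884, 4279 and 4564 in silk co-cultures, against 1498, 1367 and 1348 in silk monocultures, 3.02 times the monoculture mean (1.59 ± 0.15, adjusted p = 8.11e-06). Each co-culture library lay far above each monoculture library, and 14.7% of all genes tested also lay wholly higher in co-cultures. The TIMP2 call held in all 21 alternatives. TIMP2's excess was 14.7%, 17.0% and 18.7% of the fibroblast excess in the 3 silk co-cultures, where the 112 marker genes had a median of 0.0503% and a highest mean of 2.91%. Of the 13 members set beside the markers on silk, TIMP1 (3.22 ± 1.88%) and MMP2 were also above every marker, and 4 were below the lower quartile, ADAMTS15 (-7.36 ± 2.10%), MMP17 (-1.62%, at 0 in each library), MMP19 (-0.70 ± 0.80%) and ADAMTS12 (-0.28 ± 3.69%). The other 6 had means of 0.0556% to 0.245%. The markers were chosen as genes far lower in epithelial monocultures than in fibroblasts. TIMP2, TIMP1, MMP2, ADAMTS12, ADAMTS15 and MMP19 had silk monoculture means of 1404, 1375, 1055, 56.9, 35.9 and 34.2. Their percents also move with their epithelial level, so the marker range is no like-for-like reference for them. TIMP3 had 28.9, 0.918 and 55.6 in silk co-cultures and 0 in all 3 silk monocultures. By group means it was at least 10.2-fold higher, against 3 reads per library. It passed the filter on low values only through co-cultures, so its direction was fixed. Its 3 co-culture values ran from 0.918 to 55.6, beside fibroblast shares of 0.0239%, 0% and 0.113% in the same libraries; TIMP3 is itself 1 of the genes behind the share. Its adjusted p of 0.0138 was 0.0817 without silk co-culture 1, 0.102 without silk co-culture 3, 0.0529 without silk monoculture 2 and 0.0533 without silk monoculture 3.

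Several genes on silk came close to the threshold without passing it. MMP2 had 1411, 1875 and 1610.4 in silk co-cultures, against 1012, 1273 and 879 in silk monocultures (0.64 ± 0.19, adjusted p = 0.0705). Its co-cultures lay wholly above its monocultures, as for 14.7% of all genes tested. The MMP2 excess of 3.51 ± 1.42% of the fibroblast excess was above that of every marker gene, with the limit given above. ADAMTSL4 had 312, 412 and 291 in silk co-cultures, against 226, 236 and 139.9 in silk monocultures (adjusted p = 0.111). ADAMTS1, an inducible versican- and aggrecan-cleaving enzyme, had 1473, 1134 and 1104 in silk co-cultures, against 2109, 3371 and 1653 in silk monocultures (adjusted p = 0.0849), and ADAMTS9 had 432, 479.8 and 398 in silk co-cultures, against 632, 671 and 676 in silk monocultures (adjusted p = 0.101). These 4 genes passed without LN/PC monoculture 2, which brought the count to 6. Over all genes the count rose from 545 to 819 in that fit. Some enzymes were at or near 0 in silk co-cultures: MMP1 had 2.42, 0 and 0.814 in silk co-cultures, MMP17 and MMP3 had 0 in all 3, ADAMTS2 had 1.20, 0 and 2.94 in silk co-cultures and ADAM33 0.797, 0 and 3.65 in silk co-cultures.

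Between co-cultures on the membranes, 19 of 38 genes passed, 5 higher and 14 lower on silk, where 36.1% of all genes passed (18.5% higher, 17.6% lower). MMP1, MMP3, MMP17, ADAM33 and ADAMTS2 are among the 14. They passed the filter on low values only through the LN/PC co-cultures, so they had to be lower. Of the other 33 members 5 were higher and 9 lower. TIMP3, among these 9, also passed only with the LN/PC co-cultures included, since too few silk co-cultures reached 10 normalized counts. The median log2 difference was -0.47 over the family members and 0.03 over all genes. TIMP3 had 28.9, 0.918 and 55.6 in silk co-cultures, against 5427, 4426 and 9248 in co-cultures on LN/PC, and the group means differed by -8.68 ± 0.84 on the log2 scale (adjusted p = 1.50e-06). TIMP1 had 1569.7, 1943 and 1636 in silk co-cultures, against 8441, 8073 and 11270.0 in co-cultures on LN/PC (-2.42 ± 0.28, adjusted p = 8.86e-06), and MMP2 had 1411, 1875 and 1610.4 in silk co-cultures, against 4978, 4984 and 6024 in co-cultures on LN/PC (-1.71 ± 0.19, adjusted p = 4.63e-06). No silk library reached an LN/PC library for any of these 3 genes, as for 26.2% of all genes tested. TIMP2 was the exception among the detected TIMPs: it had 3884, 4279 and 4564 in silk co-cultures, against 4013, 3091 and 3489 in co-cultures on LN/PC, with overlapping libraries and a 95% interval of the log2 difference from -0.04 to 0.58 (adjusted p = 0.168), beside fibroblast shares of 0.0457 ± 0.0597% on silk and 13.0 ± 2.80% on LN/PC.

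MMP7 kept the direction seen in monocultures, with 1909.6, 1598 and 2133 in silk co-cultures, against 4534, 5889.6 and 4551 in co-cultures on LN/PC (-1.41 ± 0.18, adjusted p = 2.94e-05), and fibroblasts alone had at most 1.18. ADAMTS1 was lower on silk at 1473, 1134 and 1104 in silk co-cultures, against 3963, 3138 and 2699 in co-cultures on LN/PC (-1.40 ± 0.27, adjusted p = 0.00104). ADAM15 was also lower with 573, 499 and 539.5 in silk co-cultures, against 1589.8, 1129.7 and 928 in co-cultures on LN/PC (-1.14 ± 0.22, adjusted p = 0.00107). Its mean in fibroblasts alone, 1429.6, was above those of both epithelial monocultures. ADAM12, higher on silk in monocultures, was lower on silk here with 214, 282 and 279.8 in silk co-cultures, against 527, 573 and 631 in co-cultures on LN/PC (-1.16 ± 0.20, adjusted p = 0.000448). MMP1, MMP3, MMP17, MMP19, ADAM33, ADAMTS2 and ADAMTSL1 were lower on silk as well. For those at 0 in every silk co-culture the bounds were at least 20.5-fold lower for MMP3 and at least 15.6-fold lower for MMP17, and MMP19 averaged 29.3 ± 5.73 in silk co-cultures, against 173 ± 82.9 in co-cultures on LN/PC.

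ADAMTSL3 was among the 5 genes that were higher on silk, with 598, 681 and 664 in silk co-cultures, against 159.8, 178 and 257 in co-cultures on LN/PC (1.73 ± 0.22, adjusted p = 2.66e-05). MMP24 had 293, 235 and 267 in silk co-cultures, against 19.4, 47.4 and 70.8 in co-cultures on LN/PC (2.68 ± 0.36, adjusted p = 3.93e-05), and MMP15 78.9, 56.3 and 93.3 in silk co-cultures, against 4.32, 14.1 and 14.7 in co-cultures on LN/PC (2.80 ± 0.40, adjusted p = 7.21e-05). For these 3 genes the silk libraries all lay above the LN/PC ones, as did those of 27.5% of all genes tested. ADAMTS3 averaged 92.8 ± 12.3 in silk co-cultures, against 46.0 ± 7.29 in co-cultures on LN/PC (adjusted p = 0.0185; 0.0647 without silk co-culture 2), and ADAM8, named after its values were seen, 45.9 ± 5.19 in silk co-cultures, against 23.7 ± 4.48 in co-cultures on LN/PC (adjusted p = 0.0328). The ADAM8 call was lost in 6 of 20 alternatives: without any 1 of the silk co-cultures (0.0616, 0.0719 and 0.113 without 1, 2 and 3), without LN/PC co-culture 1 (0.0946) or 2 (0.0864), and with rescaling on epithelium-restricted genes (0.0853).

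**Figure D4:**
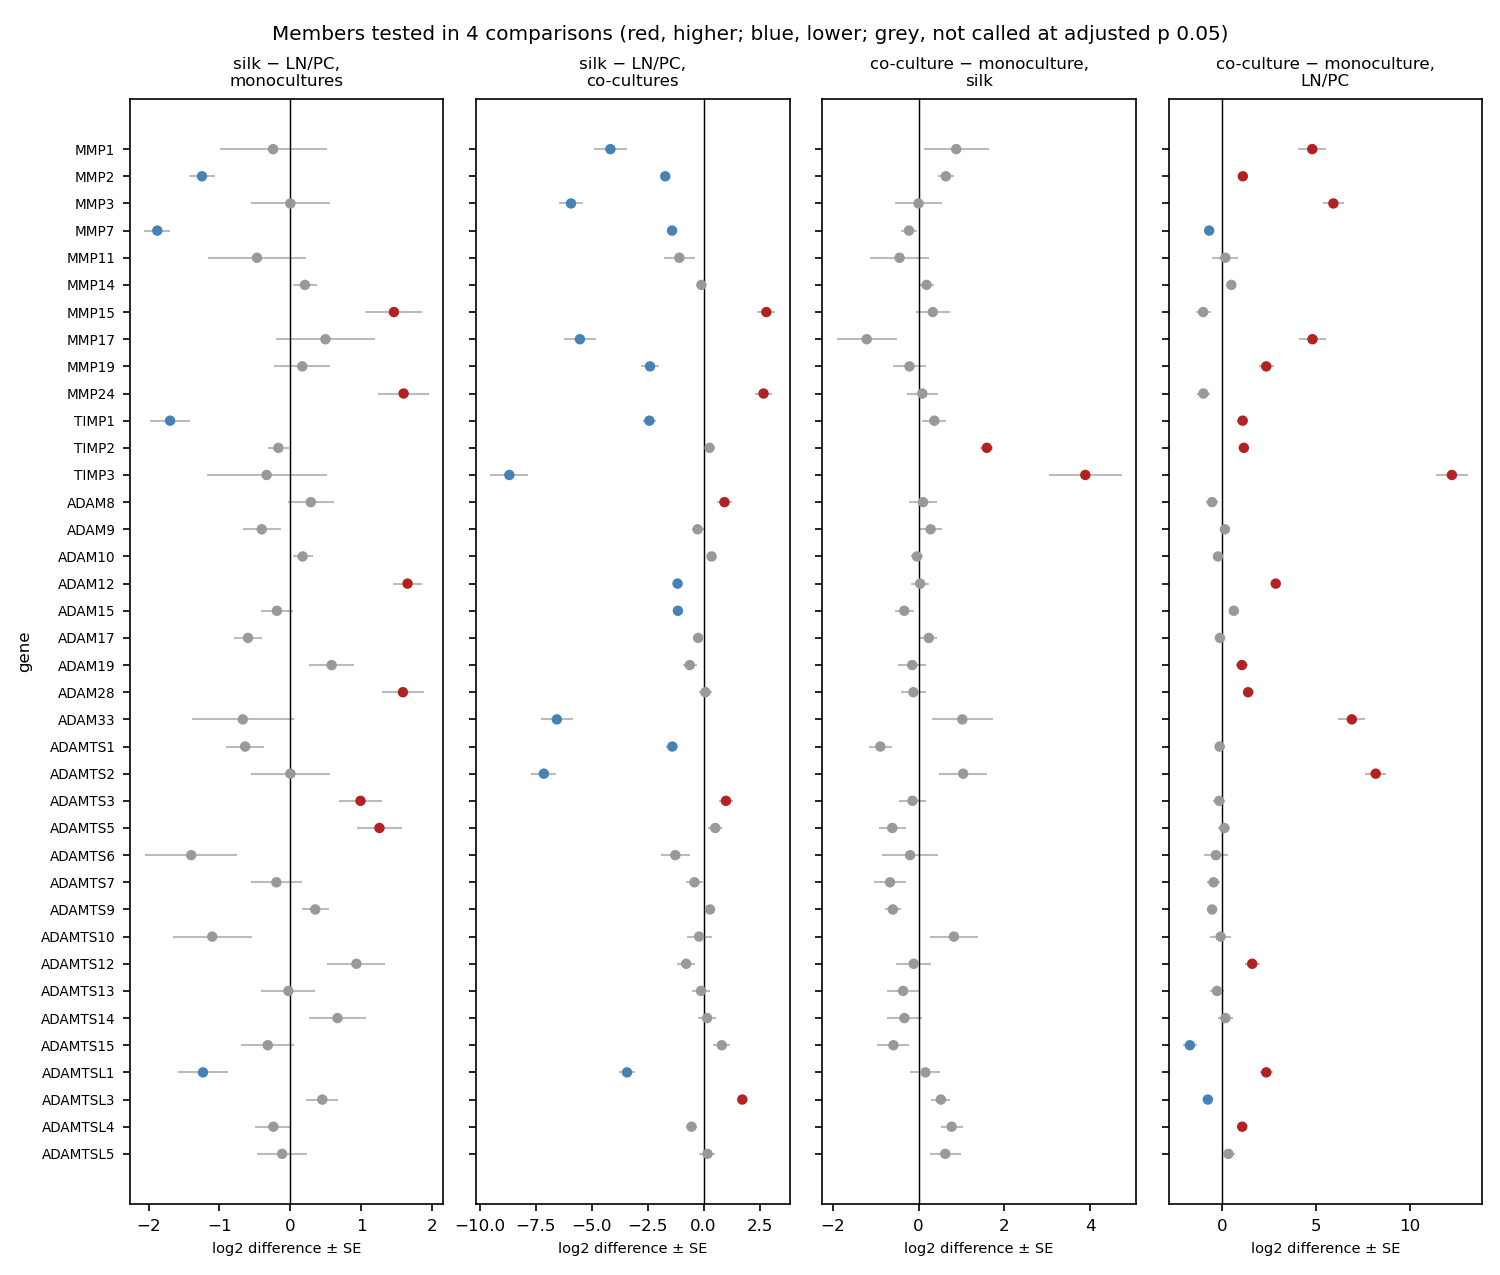
Log2 difference ± SE (x axis, a separate scale in each panel) of the 38 tested genes (rows) in 4 comparisons, with the group named before the minus sign over the one after it. Red points were called higher, blue lower and grey not called at an adjusted p of 0.05, and 2 genes are coloured for co-cultures on silk, against 19 on LN/PC. Values of genes at 0 in a group depend on the added count of 1.

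Whether the effect of co-culture differed between membranes was tested by the interaction, the co-culture difference on silk minus that on LN/PC. It passed for 11 of 38 genes, 1 higher and 10 lower, where 7.73% of all genes passed (3.15% higher, 4.59% lower). The same 5 filter-dependent genes are among the 10, and of the other 33 members 1 was higher and 5 lower. TIMP3, which passed the filter only through co-cultures, is among these 5 lower members. The count over all members was 4, 6 and 5 without LN/PC co-culture 1, 2 and 3, where 33, 32 and 32 members were tested. Over all genes it fell from 1116 to 465, 803 and 633 in these fits. ADAM12 had an interaction of -2.81 ± 0.29 (adjusted p = 1.23e-05), since its co-culture difference was 0.04 ± 0.20 on silk and 2.85 ± 0.20 on LN/PC. ADAM28, at -1.50 ± 0.42 (adjusted p = 0.0372), had a co-culture difference of -0.12 on silk and 1.38 on LN/PC, and its call held in 10 of 20 alternatives. ADAMTSL3 was the only gene with a higher interaction, 1.28 ± 0.32 (adjusted p = 0.0189): its co-culture differences were 0.52 on silk, which did not pass, and -0.76 on LN/PC. This call was lost in 7 of 20 alternatives, among them rescaling on epithelium-restricted genes (adjusted p = 0.0652), and that of MMP1 in 7 of 16. For TIMP2 (0.44 ± 0.21, adjusted p = 0.236), TIMP1 (adjusted p = 0.307) and MMP2 (adjusted p = 0.324) the interaction did not pass.

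The surface sheddases did not pass in any comparison under the main settings. ADAM10 had 2337, 2311 and 2540.4 in silk co-cultures, 1756, 1939.5 and 1907 in co-cultures on LN/PC, 2126, 2081 and 2084 in fibroblasts, 2443, 2314 and 2617 in silk monocultures and 2558, 1881 and 2147 in monocultures on LN/PC. ADAM17 averaged 719 ± 35.8 in silk co-cultures, 864 ± 197 in co-cultures on LN/PC, 933 ± 154 in fibroblasts, 612 ± 81.7 in silk monocultures and 945 ± 247 in monocultures on LN/PC. The 95% interval of the silk minus LN/PC difference in monocultures was -0.12 to 0.47 for ADAM10 and -1.02 to -0.17 for ADAM17 (adjusted p = 0.064, and 0.00477 without LN/PC monoculture 2). Between co-cultures the ADAM10 libraries on silk all lay above those on LN/PC, as for 27.5% of all genes tested. The interval was 0.06 to 0.66 (adjusted p = 0.0551), and 4 alternatives gave adjusted p-values of 0.0246 to 0.0446. ADAM9 passed in none either, with group means from 7628 in silk monocultures to 11274 in co-cultures on LN/PC. ADAMTS6 and ADAMTS13 had group means of 18.9 to 59.1 and 37.8 to 59.3 and passed in none. MMP11, ADAM32, ADAMTS7, ADAMTS10, ADAMTS14 and ADAMTSL5, with highest group means of 57.8, 37.7, 62.4, 95.3, 86.3 and 119, were called only as higher in fibroblasts. ADAMTS7 has near-identical pseudogene copies and an antisense gene overlaps ADAMTS9, so these 2 counts are uncertain. ADAM32, ADAMTS8 and TIMP4 were too low to be tested among the 12 epithelial and co-culture libraries, and MMP3 in the fit with fibroblasts.

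Genes that act with these enzymes were taken from 7 lists of known partners, whose counts stand beside shares over all genes of 11.7% between monocultures, 36.1% between co-cultures, 3.78% for co-culture on silk and 12.5% for co-culture on LN/PC. Activators and inhibitors outside the families numbered 18 tested genes, of which 4 were higher and 4 lower in silk monocultures than in monocultures on LN/PC, 2 higher and 10 lower between the co-cultures, and 10 higher and 0 lower in co-cultures on LN/PC than in their monocultures. A2M, a protease trap, averaged 3.68 ± 2.82 in silk monocultures, against 582 ± 307 in monocultures on LN/PC (-7.11 ± 0.68, adjusted p = 1.72e-05). PCSK6, a proprotein convertase, averaged 189.5 ± 66.7 in silk monocultures, against 526.5 ± 47.2 in monocultures on LN/PC (-1.52 ± 0.26, adjusted p = 0.00203). RECK, a membrane-bound inhibitor of several MMPs, averaged 304 ± 114 in co-cultures on LN/PC, against 41.4 ± 20.1 in monocultures on LN/PC (2.87 ± 0.38, adjusted p = 4.55e-05). Fibroblasts alone had 4781 ± 687 of RECK, and the part of the fibroblast RNA share in its rise was not tested.

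Of 14 genes for maturation of ADAM10 and ADAM17, 1 was higher and 2 lower in silk monocultures than in monocultures on LN/PC, and 2 were higher in silk co-cultures than in silk monocultures. Between silk co-cultures and those on LN/PC, 1 of the 14 was higher and 5 were lower. The 1 higher gene, SFRP1, reported to inhibit ADAM10, averaged 2919 ± 96.9 in silk co-cultures, against 754 ± 74.5 in co-cultures on LN/PC (1.96 ± 0.18, adjusted p = 9.23e-07). Shed substrates of ADAM10 and ADAM17 had 15 of 37 higher and 7 lower in silk co-cultures than in co-cultures on LN/PC. Their median log2 difference was 0.52, against 0.03 over all genes. Between silk and LN/PC monocultures 4 were higher and 4 lower, with a median of -0.11. Of 38 tested with fibroblasts, 26 were lower and 7 higher there than in epithelial monocultures. The part of the fibroblast RNA share in the co-culture difference was not tested. L1CAM averaged 5282 ± 641 in silk co-cultures, against 1098 ± 49.9 in co-cultures on LN/PC (2.26 ± 0.19, adjusted p = 3.88e-07), and TGFA 1562 ± 95.2 in silk co-cultures, against 534 ± 96.3 in co-cultures on LN/PC (1.56 ± 0.20, adjusted p = 2.55e-05). ADAMTS substrates and partners, largely fibrillar collagens and other fibroblast matrix genes, had 2 of 22 higher and 18 lower in silk co-cultures than in co-cultures on LN/PC, and 15 higher and 1 lower in co-cultures on LN/PC than in monocultures on LN/PC. In monocultures RELN, cut by ADAMTS3, averaged 13.0 ± 3.43 on silk, against 572 ± 110 on LN/PC (-5.36 ± 0.41, adjusted p = 5.34e-06).

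Of 18 AP-1 and ETS transcription factor genes, 2 were higher and 4 lower in silk monocultures than in monocultures on LN/PC. FOS averaged 78.0 ± 44.2 in silk monocultures, against 708 ± 591 in monocultures on LN/PC (-3.00 ± 0.52, adjusted p = 0.00203), and JUNB 209 ± 87.7 in silk monocultures, against 752 ± 466 in monocultures on LN/PC (-1.76 ± 0.39, adjusted p = 0.00972). Collagens and basement membrane genes had 2 of 23 higher and 2 lower on silk in monocultures, among them COL4A3 (1668 ± 154 in silk monocultures, against 922 ± 142 in monocultures on LN/PC) and LAMB3 (184 ± 38.3 in silk monocultures, against 918 ± 694 in monocultures on LN/PC). Of 8 other metzincin and procollagen processing genes, 3 were higher and 3 lower in silk co-cultures than in co-cultures on LN/PC. PAPPA2, which cleaves insulin-like growth factor binding proteins, averaged 6309 ± 661 in silk co-cultures, against 1870 ± 413 in co-cultures on LN/PC (1.77 ± 0.22, adjusted p = 2.09e-05).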

How the data were processed

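Poly-A RNA was sequenced from strand-keeping libraries, per the labels' protocols. The submitters' processing notes name Salmon 1.10.3 and DESeq2. Build, annotation and strand setting were not given in the sources used here. Values were deposited by the authors as log2 values with a floor of 5.54, which stands for 0 reads, on a scale like DESeq2's variance-stabilized one. With a single constant these were turned back into normalized counts, whose median ratio between libraries was then 1.01 in each library over 13121 genes. Whole reads were not recovered for a count model, and the design written for linear values was carried out on these back-transformed values.

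Tests used limma 3.58.1 (limma-trend, R 4.3.3) on log2(normalized count + 1), for genes that reached 10 normalized counts in 3 or more of the fitted libraries, with Benjamini-Hochberg adjustment over all genes tested. The 12 epithelial and co-culture libraries entered 1 fit (14433 genes) and the 9 monocultures another (14502 genes). Other values came from python 3.11.15, numpy 2.4.6, pandas 2.3.3 and scipy 1.17.1, and figures from matplotlib 3.10.9. The fitting step was tested on simulated data. Exact intervals and floors of 3 reads cover counting error only.

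The gene families and the partner and marker lists were chosen with earlier results of these data known; within the families, members were taken by name alone. Values in every library were given for members called among the 12 libraries with a group mean of at least 100, for the TIMP genes, ADAM10 and ADAM17, and for members of at least 100 whose highest group mean was 10 times the lowest; of each partner list, genes came from the up to 4 called ones per comparison with the largest differences. MMP3, MMP14, MMP15, ADAM8 and ADAM9 lie outside this rule or were added after their values were seen. Replicate numbers did not pair the samples, since same-numbered deviations correlated at -0.254 to 0.189.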

Additional observations from a re-analysis of the deposited data

Results flagged for a closer look

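For 11 genes the effect of co-culture differed between membranes by the interaction test of limma, given here as the log2 effect on silk minus that on LN/PC. It was -2.81 for ADAM12, -1.50 for ADAM28, -2.19 for ADAMTSL1, -2.56 for MMP19 and 1.28 for ADAMTSL3. It was -5.88 for ADAM33, -7.13 for ADAMTS2, -3.92 for MMP1, -6.02 for MMP17, -5.92 for MMP3 and -8.34 for TIMP3, and these 6 values depend on the added count of 1 because the genes were at or near 0 in epithelial monocultures. ADAM33, ADAMTS2, MMP1, MMP17 and MMP3 were tested only because the LN/PC co-cultures passed the filter on low values, so their differences had to arise. TIMP3 passed it only through co-cultures, so its higher levels there than in monocultures had to arise too. The fibroblast RNA share was 0.0457 ± 0.0597% in silk co-cultures and 13.0 ± 2.80% in co-cultures on LN/PC (SD, n = 3 each), and its part in these differences was not tested.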

How the results depend on the processing

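Of 80 calls of the 28 genes named by the rule, 66 held in every alternative in which the gene was tested, 14 were lost in at least 1 and 0 reversed. The 66 include calls that had to arise by the filter on low values. MMP1, MMP17, ADAM33 and ADAMTS2 were not tested in some fits without an LN/PC co-culture. Calls of MMP3, MMP14, MMP15 and ADAM8 are not among the 80. Of these, MMP15 was lost between monocultures in 5 of 21 alternatives and ADAM8 between co-cultures in 6 of 20, and the others held. Leaving out 1 library at a time gave 5 to 13 called genes between the monocultures on silk and LN/PC, 1 to 6 between silk co-cultures and silk monocultures, 10 to 20 between LN/PC co-cultures and LN/PC monocultures and 4 to 12 for the interaction. Over all genes the same fits gave 695 to 3208, 207 to 819, 753 to 2007 and 465 to 1359, in the same order. Between silk co-cultures and silk monocultures the member count was 1 with the deposited log2 values and 4 after rescaling on epithelium-restricted genes. It was 6 with only these groups in the fit. Over all genes these settings gave 648, 949 and 1174, against 545 under the main settings. The fibroblast share was 0.118% in silk co-cultures and 20.9% in co-cultures on LN/PC when marker genes were summed. That rescaling moved the median log2 difference of all genes to 0.38 between LN/PC co-cultures and LN/PC monocultures and to 0.19 on silk. With the replicate block, called genes numbered 10, 19, 2, 18 and 11 in the order silk against LN/PC monocultures, silk against LN/PC co-cultures, co-culture on silk, co-culture on LN/PC and interaction, and 34 for fibroblasts; it ended ADAMTSL3's co-culture call on LN/PC (adjusted p = 0.0524). The numbers do not pair the samples. Depth limits genes under 10 normalized counts, where 1 read was worth 0.755 to 1.33.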

Other observations

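The RNA ratio of MMP2 to its inhibitor TIMP2 was lowest in silk co-cultures. The log2 ratio of their normalized counts within a library averaged -1.39 ± 0.17 in silk co-cultures, 0.60 ± 0.25 in co-cultures on LN/PC, -0.07 ± 0.04 in fibroblasts, -0.43 ± 0.28 in silk monocultures and 0.65 ± 0.53 in monocultures on LN/PC (SD, n = 3 each). All 3 silk co-cultures, at -1.46, -1.19 and -1.50, lay below the other 12 libraries. The ratio is not corrected for gene length, so that only its change between groups can be read. Silk co-cultures were not lowest for the other ratios taken. MMP14/TIMP2 was lowest in fibroblasts (-1.90, against -0.92 in silk co-cultures), and MMP2/MMP14 in silk monocultures (-0.91, against -0.46). MMP7/TIMP1, not computed for fibroblasts, was lowest in co-cultures on LN/PC (-0.89, against 0.13). No ratio was tested.

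ADAMTSL3 exceeded both cell types alone in all 3 silk co-cultures, with means of 648 in silk co-cultures, 0.363 in fibroblasts and 458 in silk monocultures; the difference from silk monocultures did not pass (limma adjusted p = 0.24), and silk co-cultures lay wholly above silk monocultures for 14.7% of all genes tested. In all 3 LN/PC co-cultures, ADAM19, ADAM28 and MMP3 exceeded fibroblasts and LN/PC monocultures. LN/PC co-cultures lay wholly above LN/PC monocultures for 13.8% of all genes tested. ADAM28 and ADAM19 overlapped with silk monocultures, which had 97.2 to 118 and 106 to 119.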
